A study of Sus scrofa with 4 samples.

Results

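The insulin-like growth factor (IGF) system was followed through single cells of the pig conceptus and uterus. The 10 listed members are 2 ligands (IGF1, IGF2), 2 receptors (IGF1R, IGF2R) and 6 binding proteins (IGFBP1 to IGFBP6), listed by name and matched by gene symbol. Of the 10, 7 were found in the symbol column of the gene lists, and IGFBP6, listed there only by its Ensembl identifier ENSSSCG00000000261, was added through a table of gene names. The 8 measured members are 8 of 21280 genes. IGF2 and IGFBP3 were not analysed here.

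Sus scrofa embryos and endometrium, the lining of the uterus, were collected on day 12 and day 9 of pregnancy, minced, digested with enzymes and run on a droplet platform that tags the 3' end of each transcript. The 4 groups, with 1 library each, are the embryo on day 12 and on day 9 and the endometrium on day 12 and on day 9. No treatment or genotype separates them, and the sources used here do not say how many sows or embryos stand behind a library. With 1 library per group no difference between days can be tested. All 95% intervals below cover counting error only, and a call means a change of at least 2-fold on the log2(CPM + 1) scale for a gene at 5 CPM or more on 1 of the days. CPM is the number of a gene's UMIs (counted molecules) per 1000000 UMIs summed over the cells of a class.

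IGF1 and IGF2 are secreted peptides that signal through the receptor tyrosine kinase IGF1R, while IGF2R carries IGF2 and mannose 6-phosphate-tagged enzymes to the lysosome. Most extracellular IGF is held by the binding proteins, which limit or prolong its action until proteases such as PAPPA cut them. In the pig the uterus bathes a conceptus that is still free in the lumen, and uterine IGF has long been studied at the time when the conceptus elongates and begins to make oestrogen.

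On the pig assembly Sscrofa11.1, by the RefSeq gene table, IGF1 lies on chromosome 5 from 81762027 to 81909253 and IGFBP6 on the same chromosome from 18352884 to 18357225. IGF1R spans 137383623 to 137691038 and IGF2R spans 7369485 to 7472480, both on chromosome 1. IGFBP2, from 118822092 to 118850985, and IGFBP5, from 118861816 to 118877787, are neighbours on chromosome 15 with 10830 bases between them. IGFBP4 lies on chromosome 12 from 21966524 to 21980043, and IGFBP1 on chromosome 18 from 50018487 to 50022799.

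After filtering, 6671 day 12 and 7000 day 9 embryo cells remained, with 8962 day 12 and 7984 day 9 endometrial cells. The median depth was 9297 UMIs per cell in the day 12 embryo and 11883.5 in the day 9 embryo, with 2233 on day 12 and 2639 on day 9 in the endometrium. Clusters were made without the members and named from marker lists. The embryo held hypoblast-like cells (2439 on day 12 and 5790 on day 9), trophectoderm-like cells (3250 on day 12 and 652 on day 9), epiblast-like cells (100 on day 12 and 21 on day 9) and, on day 12, 216 extraembryonic mesoderm-like cells. Most endometrial cells were stroma-like, 5612 on day 12 and 5080 on day 9. The day 12 clusters 8 and 13 and the day 9 clusters 5 and 7 carried epithelial markers. In cluster 8, with 296 of the 355 day 12 cells, 10 of 12 detected epithelial markers were high. Of the listed epithelial markers, 3 were among its 50 leading genes. Its 10 leading genes held S100A12, a listed granulocyte marker, and no listed epithelial marker. All these clusters are therefore called epithelial-marker clusters and compared between days by cluster number. Kept cell barcodes were shared by every pair of libraries, between 54 and 105 a pair. Endometrial clusters 7 of day 12 and 10 of day 9 stayed unnamed. Each had 9 T or NK cell markers among its 50 leading genes, but stromal markers were also high in cluster 7, and too few markers of the list were high in cluster 10 for a name.

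IGF1, the ligand, had most of its UMIs in the stroma-like cells of the endometrium and in the hypoblast-like cells of the embryo. Stroma-like cells held 13500 of 15494 IGF1 UMIs on day 12 and 8467 of 9676 on day 9. The stromal level was 1013 CPM on day 12 (996 to 1030.4) against 571 CPM on day 9 (558 to 583), a ratio of 1.78 (1.73 to 1.82) that stayed under the 2-fold call. At 1000 UMIs per cell, 55.3% of stroma-like cells carried an IGF1 UMI on day 12 and 41.3% on day 9, against 5.59% on day 12 and 5.42% on day 9 in T or NK cell-like cells, taken as a class that should lack it. Without thinning the stromal share was 75.1% on day 12 (median depth 2171 UMIs) and 71.9% on day 9 (2683 UMIs). The share in T or NK cell-like cells was then 9.97% on day 12 (1244 UMIs) and 6.58% on day 9 (1207 UMIs). The stromal share thus stood far above the share seen in lymphocytes on both days.

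RNA released by broken cells can enter any droplet, and each member was therefore set beside 5 stromal matrix genes, DCN, LUM, COL1A1, COL1A2 and COL3A1. In T or NK cell-like cells of day 12, IGF1 was at 8.93% of its stromal level, within the 7.003% to 9.22% at which the matrix genes were found. On day 9 it was at 9.21%, within their 6.59% to 9.57%. In the epithelial-marker clusters IGF1 was at 10.7% of the stromal level on day 12, within the matrix genes (9.54% to 14.1%). On day 9 it was at 13.7% there, slightly above the matrix genes (10.2% to 12.8%). In macrophage or monocyte-like cells IGF1 was slightly above those genes, at 15.9% on day 12 (11.5% to 12.6%) and 17.8% on day 9 (13.6% to 16.7%).

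**Figure D1:**
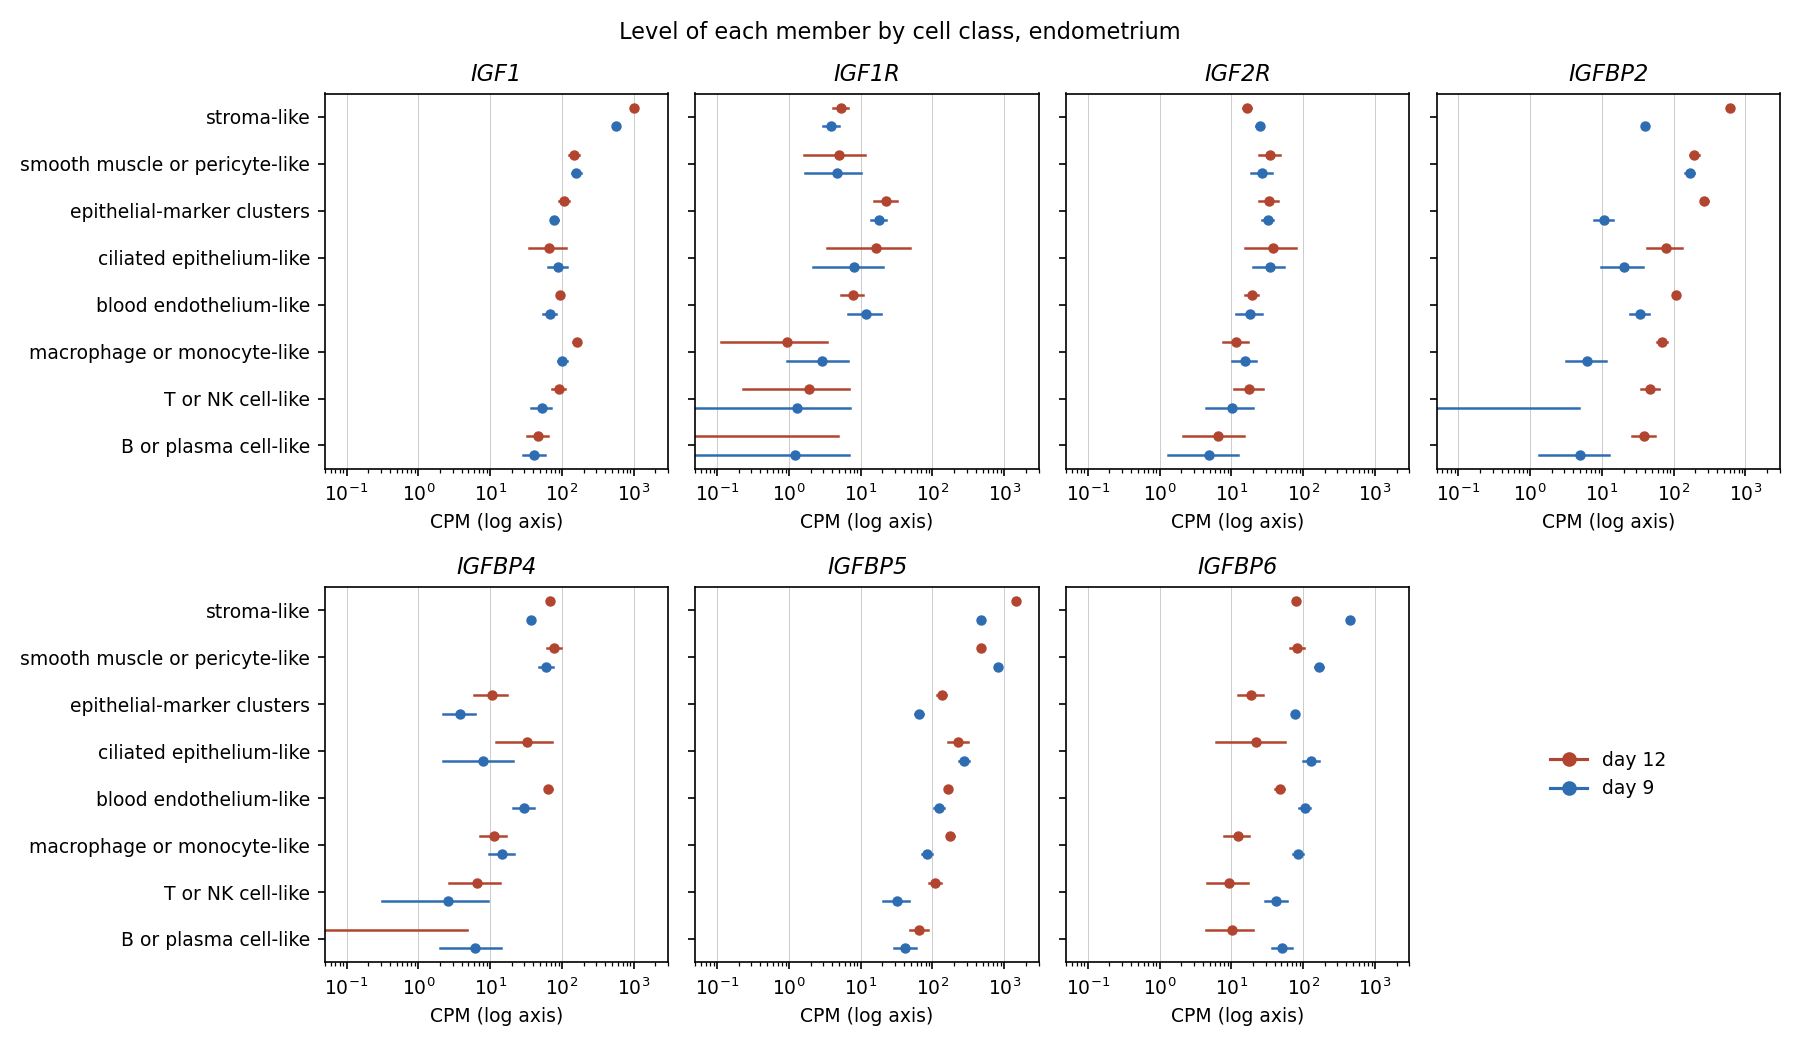
Level of each measured member with UMIs in the endometrium, in CPM on a log axis, by cell class (rows) with day 12 above day 9. Points are summed UMIs of a class in 1 library, lines are exact 95% Poisson intervals, and a line without a point is a class with 0 UMIs. IGF1 stands highest in stroma-like cells on both days, and the IGFBP2 points of day 12 lie to the right of those of day 9 in most classes.

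In the embryo, hypoblast-like cells held 858 of 995 IGF1 UMIs on day 12 and 1553 of 1642 on day 9. The level was 30.5 CPM on day 12 against 20.9 CPM on day 9, a ratio of 1.46 (1.34 to 1.58) under the 2-fold call. In trophectoderm-like cells it was 2.61 CPM on day 12 against 4.06 CPM on day 9, and the intervals overlap. The trophectoderm level was 8.57% of the hypoblast level on day 12, inside the 4.40% to 28.1% at which 9 hypoblast markers were found in the same cells, and 19.4% on day 9, inside the range of 7.31% to 23.4% for 8 markers. Hypoblast-like cells whose barcodes did not occur in the endometrial libraries had nearly the IGF1 level of the whole class, 30.0 CPM on day 12 against 21.0 CPM on day 9, while the stromal gene DCN was at 0.328 CPM on day 12 against 0.332 CPM on day 9 in them.

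IGF1R, the signalling receptor, was sparse. Its level was highest in the epithelial-marker clusters within the endometrium and, on day 12, in the trophectoderm-like cells within the embryo, where the intervals of epiblast-like and extraembryonic mesoderm-like cells overlapped theirs. It reached 22.5 CPM in cluster 8 and 22.8 CPM in cluster 13 on day 12, and 22.7 CPM in cluster 5 and 14.1 CPM in cluster 7 on day 9, with overlapping intervals throughout. Stroma-like cells had 5.33 CPM on day 12 against 3.91 CPM on day 9. The epithelial-marker clusters together were therefore at 423% of the stromal level on day 12 and 456% on day 9, where the 5 matrix genes were at 9.54% to 14.1% on day 12 and 10.2% to 12.8% on day 9. Among classes of 50 or more cells on both days, blood endothelium-like cells came next, with 7.71 CPM on day 12 against 11.8 CPM on day 9. Their interval overlapped that of the epithelial-marker clusters on day 9 but not on day 12.

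In trophectoderm-like cells IGF1R had 159 UMIs in 3250 cells on day 12 and 1 UMI in 652 cells on day 9. These are levels of 5.61 and 0.226 CPM and a ratio of 24.8, with an interval of 4.40 to 987 that the single day 9 UMI leaves wide. Hypoblast-like cells had 14 IGF1R UMIs (0.497 CPM) on day 12 and 9 (0.121 CPM) on day 9, below the 5 CPM needed for a call. On day 12 the trophectoderm level was thus above the hypoblast level without overlap, and overlapped those of epiblast-like cells (3.86 CPM) and extraembryonic mesoderm-like cells (2.76 CPM). Among the trophectoderm-like clusters of day 12 IGF1R ranged between 1.33 CPM in cluster 5 and 10.9 CPM in cluster 9, which is led by the interferon-induced genes MX1 and ISG15. These levels rest on few UMIs, both in the 277 cells of cluster 5 and in the 81 cells of cluster 9. The difference between these clusters was not tested.

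IGF2R, the clearance receptor, passed the call in no class. Stroma-like cells had 16.5 CPM on day 12 against 24.9 CPM on day 9, a 1.51-fold lower level on day 12 (1.27 to 1.79). The epithelial-marker clusters 8 and 13 had 32.1 and 39.9 CPM on day 12, and clusters 5 and 7 had 33.8 and 31.1 CPM on day 9. Hypoblast-like cells had 10.3 CPM on day 12 against 9.02 CPM on day 9, and trophectoderm-like cells had 8.36 CPM on day 12 against 8.80 CPM on day 9, with overlapping intervals in each pair. Epiblast-like cells stood at 24.7 CPM on day 12 against 25.01 CPM on day 9, where 21 cells gave 8 UMIs.

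IGFBP2, which binds both ligands, had the widest day difference of the members in the stroma-like cells. It was at 599 CPM on day 12 (586 to 613) against 39.6 CPM on day 9 (36.5 to 43.0), a ratio of 15.1 (13.9 to 16.5). IGFBP5, a binding protein that also attaches to matrix, was at 1467 CPM on day 12 against 467 CPM on day 9, a ratio of 3.14 (3.06 to 3.23). IGFBP6, which prefers IGF2, went the other way, with 80.4 CPM on day 12 against 444 CPM on day 9, 5.52-fold lower on day 12 (5.18 to 5.90). IGFBP4, a substrate of PAPPA, was at 67.6 CPM on day 12 against 37.6 CPM on day 9, a ratio of 1.80 (1.62 to 2.002) short of the call.

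Of the 7 members past the 5 CPM minimum in stroma-like cells, 2 rose (IGFBP2 and IGFBP5) and 1 fell (IGFBP6). Over all 10102 genes past the same minimum, 5.87% rose and 7.85% fell. The median log2 ratio was 0.83 for the 7 members and -0.10 for all those genes.

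At 1000 UMIs per cell, 29.3% of stroma-like cells carried IGFBP2 on day 12 and 2.87% on day 9, against 3.63% on day 12 and 0% on day 9 in T or NK cell-like cells. IGFBP5 was found in 60.0% of stroma-like cells on day 12 and 29.1% on day 9, against 7.25% on day 12 and 2.51% on day 9 in T or NK cell-like cells. IGFBP6 was found in 5.20% of stroma-like cells on day 12 and 16.0% on day 9, against 0.604% on day 12 and 3.87% on day 9 in T or NK cell-like cells. Unthinned, IGFBP2 was found in 42.3% of stroma-like cells on day 12 and 6.93% on day 9, and in 6.04% of T or NK cell-like cells on day 12 and 0% on day 9. The unthinned IGFBP5 shares were 77.2% on day 12 and 51.2% on day 9 in stroma-like cells, and 10.6% on day 12 and 4.45% on day 9 in T or NK cell-like cells. Those of IGFBP6 were 10.8% on day 12 and 30.6% on day 9 in stroma-like cells, and 1.21% on day 12 and 5.61% on day 9 in T or NK cell-like cells. In stroma-like cells the shares and the CPM had the same order of days for all 3 genes. The 0 of 517 day 9 cells has an exact upper limit of 0.711%, which limits cells with an IGFBP2 UMI at this depth and not cells that express the gene.

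The stroma-like cells were not uniform, although the members played no part in clustering them. Day 12 cluster 0 had 1232 CPM of IGFBP2, and the other 4 stroma-like clusters of that day had between 73.4 CPM (cluster 2) and 350.4 CPM (cluster 6). On day 9 IGFBP2 was at 83.8 CPM in cluster 1, 14.0 CPM in cluster 0 and 8.36 CPM in cluster 2. IGFBP6 on day 12 lay between 35.5 CPM (cluster 10) and 99.5 CPM (cluster 0), whereas on day 9 cluster 1 alone had 997 CPM and clusters 0 and 2 had 87.3 and 127 CPM. The day 9 stromal level of IGFBP6 was therefore carried mainly by 1631 of 5080 cells, and the day 12 level of IGFBP2 mainly by 1923 of 5612.

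Day 12 cluster 0 and day 9 cluster 1 were, among the stroma-like clusters of their own day, those highest in both IGFBP2 and IGFBP6, and AGT and CEMIP, encoding angiotensinogen and a hyaluronan-degrading protein, were among the 10 leading genes of each. IGFBP6 was itself among the leading genes of day 9 cluster 1 and IGFBP2 among those of day 12 cluster 0. IGFBP5 and IGF1 varied less. IGFBP5 ranged between 1078 and 1708 CPM over the day 12 clusters and between 302 and 597 CPM over those of day 9. IGF1 ranged between 813 and 1197 CPM over the day 12 clusters and between 508 and 641 CPM over those of day 9, so in both genes every day 12 cluster lay above every day 9 cluster. When both days were clustered together, stroma-like cells still separated by library, with at most 1 cell of the other day in each cluster, so no cluster allowed a comparison within 1 stromal state.

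Across the endometrial classes the order of levels differed between the binding proteins. IGFBP2 on day 12 ran in the order stroma-like, epithelial-marker, smooth muscle or pericyte-like, blood endothelium-like and macrophage or monocyte-like among classes of 50 or more cells on both days, with no neighbouring intervals overlapping, whereas on day 9 smooth muscle or pericyte-like cells came first (167 CPM), without overlap with stroma-like cells (39.6 CPM). IGFBP4 on day 12 overlapped between smooth muscle or pericyte-like (77.3 CPM), stroma-like and blood endothelium-like cells (64.8 CPM). On day 9 the first of these, at 59.997 CPM, was above stroma-like cells without overlap. IGFBP6 on day 12 overlapped between smooth muscle or pericyte-like and stroma-like cells, and on day 9 stroma-like cells were above all other classes without overlap.

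**Figure D2:**
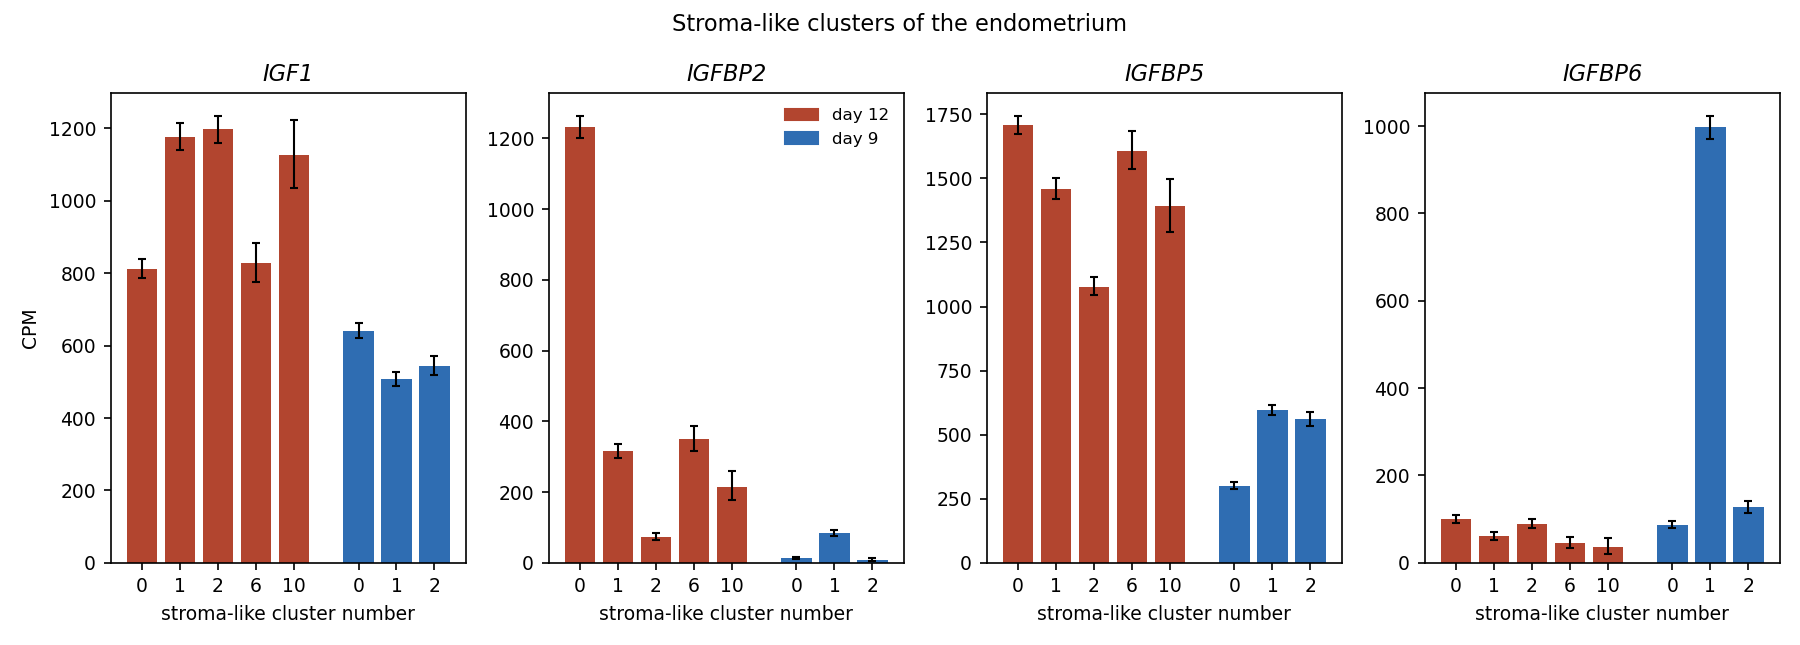
IGF1, IGFBP2, IGFBP5 and IGFBP6 in CPM (linear axes from 0) in each stroma-like cluster, with 5 clusters of day 12 left and 3 of day 9 right. Bars are summed UMIs of a cluster and error bars exact 95% Poisson intervals. IGFBP2 is highest in day 12 cluster 0 and IGFBP6 in day 9 cluster 1.

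Smooth muscle or pericyte-like cells, which surround vessels and form the muscle wall, held 2 kinds of cluster with different values of IGFBP2. In the clusters led by STMN2 it was at 118 CPM on day 12 (cluster 9) against 32.2 CPM on day 9 (cluster 6), and in those with the contractile gene CNN1 among their 10 leading genes at 299 CPM on day 12 (cluster 11) against 331 CPM on day 9 (cluster 8). When both days were clustered together the first kind had 122.7 CPM on day 12 (95.6 to 155) against 32.2 CPM on day 9 (19.95 to 49.3), and the intervals of the second kind overlapped. The class sum, which mixes both kinds, was at 194 CPM on day 12 against 167 CPM on day 9, a ratio of 1.16 (0.954 to 1.42). In the class sums IGFBP5 was at 469.7 CPM on day 12 against 815 CPM on day 9, 1.74-fold lower on day 12 (1.56 to 1.94), the opposite direction to the stroma-like cells, though the difference between the classes was not tested. IGFBP6 was at 83.2 CPM on day 12 against 166 CPM on day 9, 1.996-fold lower (1.54 to 2.60) and just short of the call with 1 CPM added. None of the 6 members past the minimum was called in either direction, where 7.87% of all genes rose and 7.92% fell. IGFBP2 and IGFBP5 were below their stromal levels on day 12, at 32.4% for IGFBP2 and 32.0% for IGFBP5, where the matrix genes were at 19.8% to 59.4%. On day 9 they were above them, at 421% for IGFBP2 and 175% for IGFBP5, where the matrix genes were at 31.4% to 65.6%.

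In the epithelial-marker clusters IGFBP2 was at 288 CPM in cluster 8 and 125 CPM in cluster 13 on day 12, and at 14.4 CPM in cluster 5 and 7.67 CPM in cluster 7 on day 9. Both day 12 clusters were above both day 9 clusters without overlap. Summed, these clusters held IGFBP2 at 44.8% of the stromal level on day 12 and 26.8% on day 9, above the matrix genes at 9.54% to 14.1% on day 12 and 10.2% to 12.8% on day 9. IGFBP5 was at 115 CPM in cluster 8 and 279 CPM in cluster 13 on day 12, and at 62.6 and 66.9 CPM in clusters 5 and 7 on day 9. Summed IGFBP5 was at 9.21% of its stromal level on day 12, slightly below the matrix genes, and at 13.9% on day 9, slightly above them. IGFBP6 was at 15.3 and 45.6 CPM in clusters 8 and 13 on day 12 and at 101 and 58.8 CPM in clusters 5 and 7 on day 9, where the interval of cluster 13 overlaps those of both day 9 clusters.

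In blood endothelium-like cells IGFBP2 rose, with 107 CPM on day 12 against 33.8 CPM on day 9, a ratio of 3.17 (2.32 to 4.44). IGFBP4 rose, with 64.8 CPM on day 12 against 29.9 CPM on day 9, a ratio of 2.17 (1.54 to 3.13), and was at 95.9% of its stromal level on day 12 (matrix genes 8.82% to 10.4%) and 79.5% on day 9 (9.24% to 18.8%). IGFBP6 fell, with 47.2 CPM on day 12 against 105 CPM on day 9, 2.24-fold lower (1.79 to 2.79). These 3 calls among 7 members past the minimum compare with 4.32% of genes rising and 7.83% falling in this class. IGFBP2 was at 17.9% of its stromal level on day 12 and 85.4% on day 9. IGFBP6 was at 58.6% on day 12 and 23.7% on day 9, so each stood above the matrix genes. The part of free RNA in the day differences of this class was not tested.

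The immune classes had IGFBP2 higher and IGFBP6 lower on day 12, as in the stroma-like cells, at levels below the stromal ones. In macrophage or monocyte-like cells, of 6 members past the minimum, IGFBP2 (69.5 CPM on day 12, 6.28 CPM on day 9) and IGFBP5 (177 CPM on day 12 and 83.3 CPM on day 9) rose and IGFBP6 (12.2 CPM on day 12 and 84.5 CPM on day 9) fell, where 6.33% of genes rose and 10.2% fell. IGFBP2 and IGFBP5 there were at 11.6% and 12.1% of their stromal levels on day 12, within the 11.5% to 12.6% of the matrix genes, and IGFBP6 at 15.2% was above them. On day 9, where the matrix genes were at 13.6% to 16.7%, IGFBP2 was at 15.8%, IGFBP5 at 17.8% and IGFBP6 at 19.01%. In T or NK cell-like cells IGFBP2 had 50 UMIs on day 12 and 0 on day 9, at least 12.3-fold higher with a floor of 3 UMIs in the day 9 class sum, while the exact interval of the ratio starts at 9.61. With barcodes shared between libraries left out, the log2 ratio of IGFBP2 there was 2.52.

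Also in T or NK cell-like cells, IGFBP5 rose (108 CPM on day 12, 32.0 CPM on day 9, a ratio of 3.38, 2.18 to 5.45) and IGFBP6 fell (9.43 CPM on day 12, 42.3 CPM on day 9). IGFBP4 was called higher on 7 UMIs on day 12 and 2 on day 9, a ratio of 2.57 with an interval of 0.490 to 25.4. Those 3 higher and 1 lower of 6 members compare with 7.8% of genes rising and 11.8% falling. IGFBP2 and IGFBP5 were at 7.87% and 7.39% of the stromal level on day 12 beside matrix genes at 7.003% to 9.22%. With the 460 shared barcodes left out and the cells clustered again, the signs of IGFBP4 and IGFBP5 reversed. Then IGFBP2 alone was called higher, IGF1, IGFBP4 and IGFBP6 were called lower, and 159 of the 657 day 9 cells in the class came from the unnamed cluster 10. Of the 517 day 9 cells in the class before, 496 stayed. The parts of leaving out barcodes and of taking in that cluster were not tested.

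In B or plasma cell-like cells, with 77 cells on each day, 1 of 6 members past the minimum rose and 2 fell, where 11.0% of genes rose and 16.3% fell. IGFBP2 rose (30 UMIs on day 12, 4 on day 9) and IGFBP6 fell (8 UMIs on day 12, 42 on day 9). IGFBP4 was called lower on 0 UMIs on day 12 and 5 on day 9, and the interval of its ratio reaches up to 1.15. The part of free RNA in the day differences of the immune classes was not tested.

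**Figure D3:**
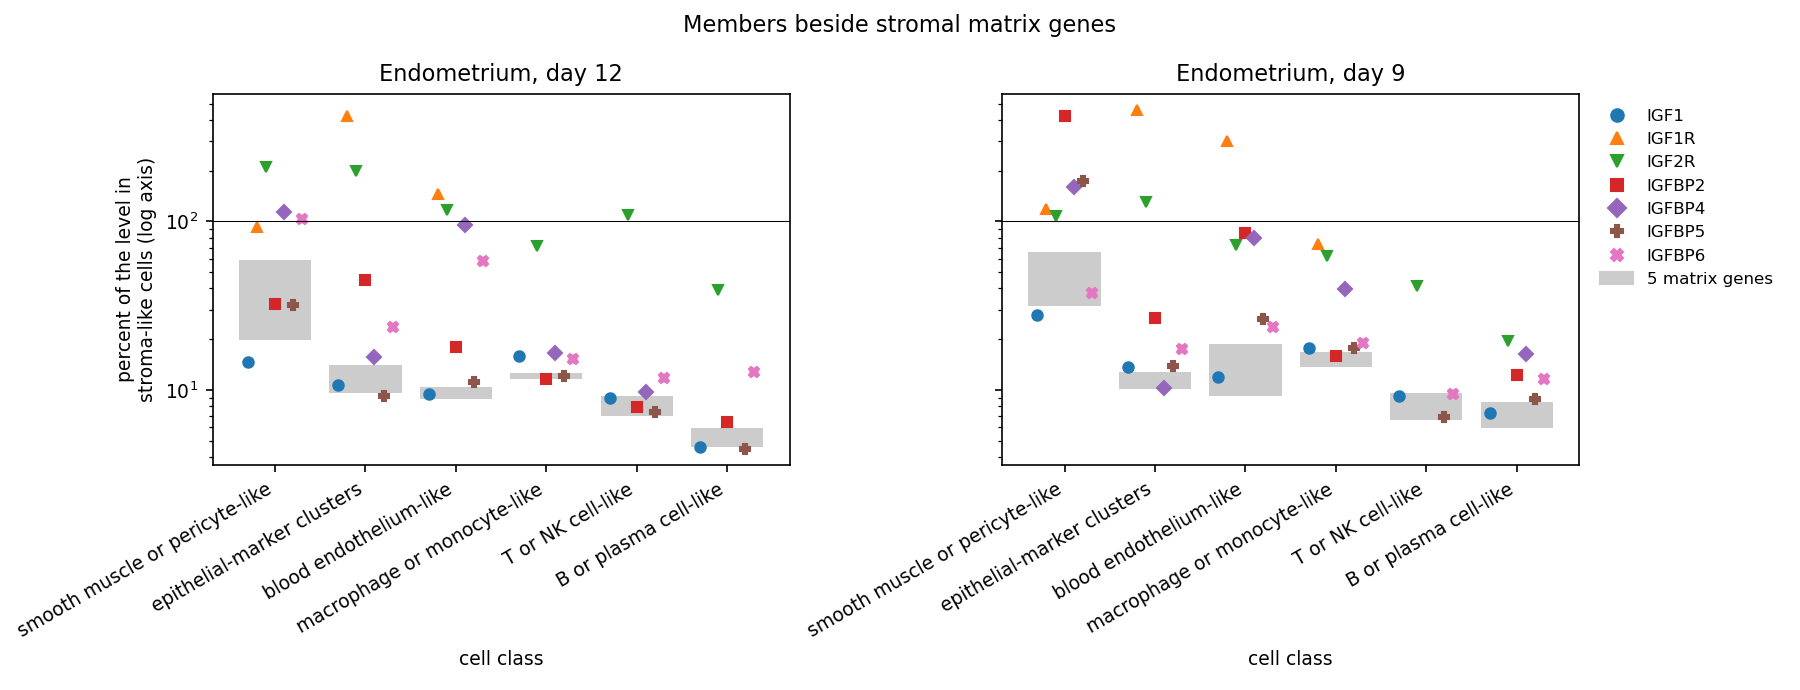
Each member's CPM as a percent of its CPM in stroma-like cells of the same library (log axis, 100 marked by a line), by cell class, with day 12 left and day 9 right. Grey bars span the same percent for 5 stromal matrix genes, and members with 3 UMIs or fewer in a class are not drawn. In T or NK cell-like cells of day 12, IGF1, IGFBP2 and IGFBP5 lie within the grey bar, while IGF1R in the epithelial-marker clusters lies above 400 on both days.

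In the embryo IGFBP5 was highest in the trophectoderm-like cells, the outer layer that faces the uterus, on day 12. It was at 148 CPM on day 12 (4211 UMIs) against 14.7 CPM on day 9 (65 UMIs), a ratio of 10.1 (7.92 to 13.1). At 1000 UMIs per cell 14.3% of trophectoderm-like cells carried it on day 12 and 1.23% on day 9. Unthinned the shares were 60.1% on day 12 (median depth 8215.5 UMIs) and 9.20% on day 9 (5700 UMIs). All 4 day 12 clusters were above day 9, with 96.4 CPM in cluster 5 and 142 to 152.5 CPM in the other 3. The median mitochondrial share of trophectoderm-like cells was 3.63% on day 12 (0.281% in cluster 5) and 0.547% on day 9. In hypoblast-like cells it was 3.38% on day 12 and 3.46% on day 9. The part of this difference in the day ratios of trophectoderm-like cells, that of IGF1R included, was not tested. Of the 3 members past the minimum in this class, 2 rose (IGF1R and IGFBP5) and none fell. That is to be read against 29.3% of all 7775 genes rising and 10.0% falling, with a median log2 ratio of 0.31 over those genes. The other binding proteins were under 5 CPM there. IGFBP2 had 132 UMIs on day 12 and 6 on day 9, IGFBP6 had 110 on day 12 and 9 on day 9, and IGFBP4 had 14 on day 12 and 0 on day 9.

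**Figure D4:**
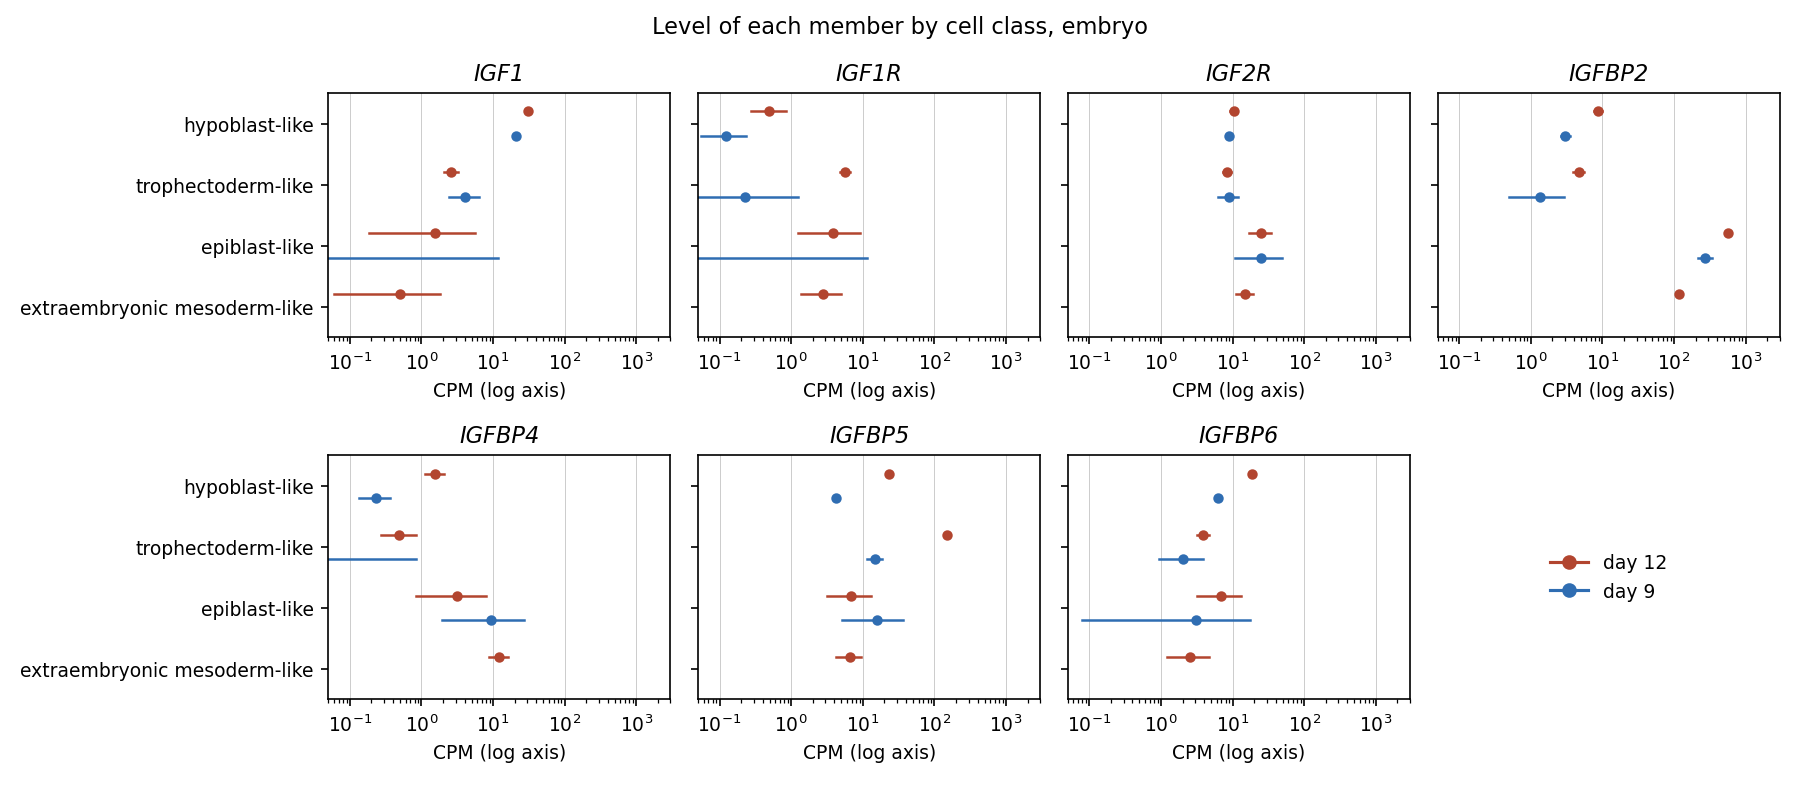
Level of each measured member with UMIs in the embryo, in CPM on a log axis, by cell class (rows) with day 12 above day 9. Points are summed UMIs of a class, lines are exact 95% Poisson intervals, and a line without a point is a class with 0 UMIs. On day 12 IGFBP5 is highest in trophectoderm-like cells, IGF1 and IGFBP6 in hypoblast-like cells, and IGFBP2 in epiblast-like cells.

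In hypoblast-like cells, the inner layer that lines the yolk sac, 3 binding proteins rose. IGFBP5 rose, with 23.2 CPM on day 12 against 4.23 CPM on day 9, a ratio of 5.49 (4.79 to 6.30). IGFBP6 rose, with 18.8 CPM on day 12 against 6.28 CPM on day 9, a ratio of 2.99 (2.64 to 3.40), against the direction of IGFBP6 in the endometrium. IGFBP2 rose, with 8.59 CPM on day 12 against 3.06 CPM on day 9, a ratio of 2.81 (2.33 to 3.38). These 3 of 5 members past the minimum compare with 11.9% of 8221 genes rising, and none of the members fell where 9.23% of genes did. When both days were clustered together the class held 2565 day 12 and 1194 day 9 cells, against 2439 and 5790 with each library clustered alone. IGFBP6 alone then kept its call, and the log2 ratios were 0.85 for IGFBP2 and 0.84 for IGFBP5. The smaller set of day 9 cells and the joint clustering cannot be told apart here.

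On day 9 IGFBP5 was at 12.0 CPM in hypoblast-like cluster 2, led by SULF1 and SLC39A8, and between 2.02 and 3.44 CPM in the other 4 clusters of the class. The hypoblast level was 15.6% of the trophectoderm level on day 12, where 10 trophectoderm markers were at 4.03% to 129% with a median of 8.10%, and 28.8% on day 9, where 9 markers were at 0.932% to 7.24%. The part of trophectoderm RNA in the hypoblast level of IGFBP5 was not tested.

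IGFBP2 was highest in the epiblast-like cells of the embryo, the cells that form the body. They had 560.4 CPM on day 12 (520.4 to 603) from 100 cells and 272 CPM on day 9 (218 to 336) from 21 cells, too few for a comparison of days. Extraembryonic mesoderm-like cells of day 12 had 118 CPM of IGFBP2 and, at 12.1 CPM, the highest IGFBP4 level of the day 12 embryo, above that of epiblast-like cells (3.09 CPM) without overlap. The 100 epiblast-like cells held 726 and the 216 mesoderm-like cells 469 of the 1841 IGFBP2 UMIs of the day 12 embryo. An unnamed day 9 cluster of 70 cells, led by LOXL2 and SLC28A3 and with LEFTY2, NODAL and EOMES among its 10 leading genes, had 66.7 CPM of IGFBP2, and an unnamed day 12 cluster of 119 cells led by TTR had 216 CPM.

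IGFBP1 had no UMI in the kept cells of any library. Taken as 3 UMIs of the library total, a count of 0 allows up to 0.0467 CPM in the day 12 embryo, 0.0364 CPM in the day 9 embryo, and in the endometrium 0.118 CPM on day 12 and 0.115 CPM on day 9, so it was not detectable at this depth.

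**Figure D5:**
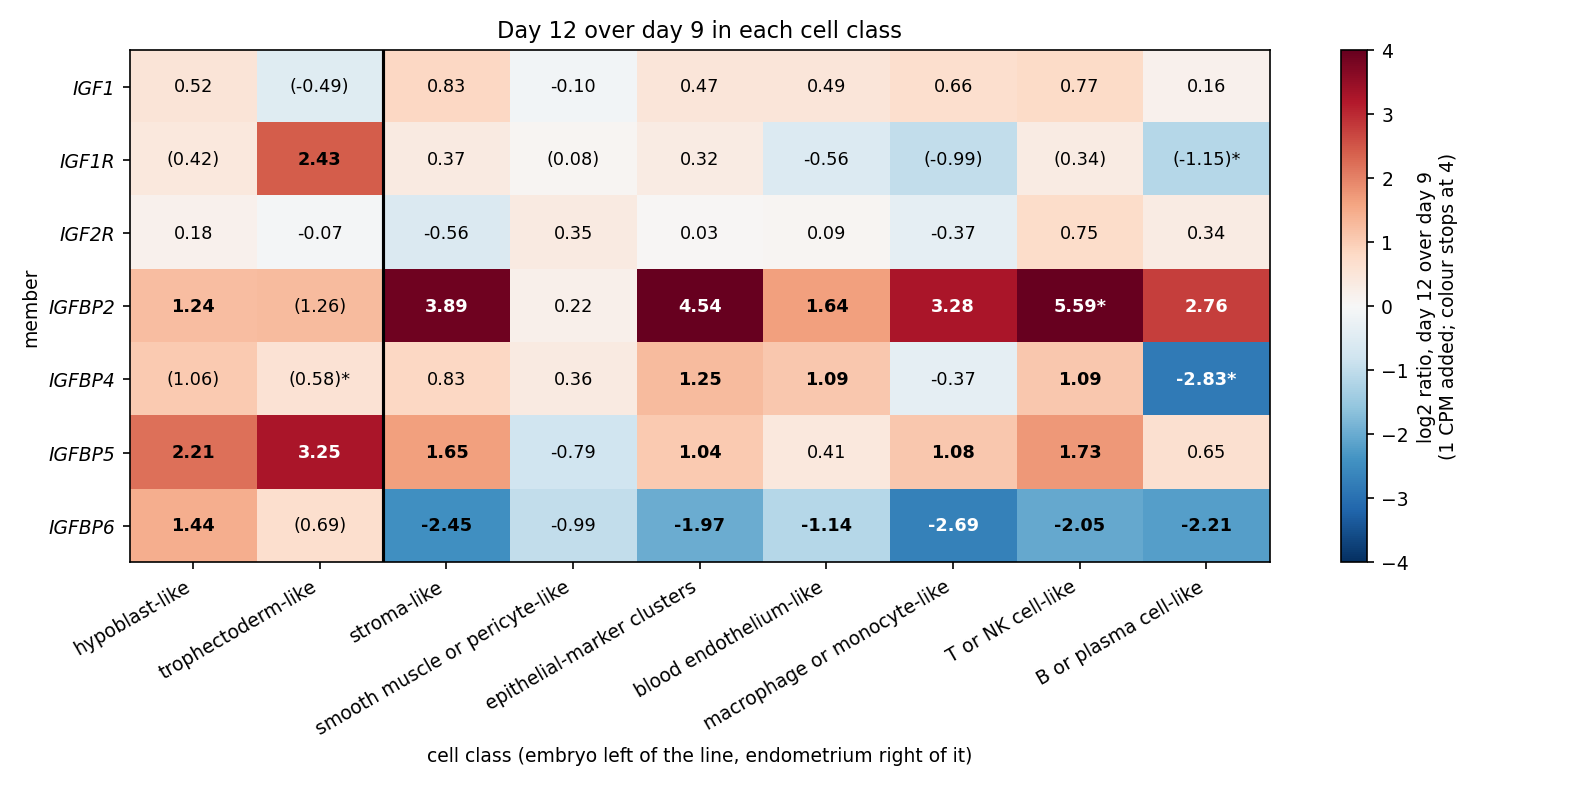
Log2 ratio of day 12 over day 9 for each member (rows) and cell class (columns), after adding 1 CPM, with embryo classes left of the black line. Bold values are called, values in brackets are under 5 CPM on both days, and a star marks a class with 0 UMIs on 1 day, where the value depends on the added CPM. IGFBP6 is positive in the embryo columns and negative in the endometrial ones, and IGFBP2 is positive throughout.

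Around the members, single proteases and inhibitors were called in some classes. PAPPA, which cleaves IGFBP4, rose in stroma-like cells (32.1 CPM on day 12 against 11.8 CPM on day 9, a ratio of 2.72, 2.28 to 3.27) and in hypoblast-like cells (8.16 CPM on day 12, 0.525 CPM on day 9, a ratio of 15.5, 11.0 to 22.4). STC1, stanniocalcin, an inhibitor of PAPPA, fell in stroma-like cells (6.45 CPM on day 12 against 27.4 CPM on day 9, 4.25-fold lower). STC1 was at 707 CPM in the summed epithelial-marker clusters of day 12, where cluster 8 made up 296 of 355 cells, against 20.7 CPM in those of day 9. No STC1 value by cluster number is given, so a change of level and a change of cell mix cannot be told apart here. PAPPA2 had at most 4 UMIs on a day in these classes. HTRA1, a serine protease that cuts IGFBP5, fell in stroma-like cells (60.9 CPM on day 12, 134 CPM on day 9). Of 10 listed proteases and inhibitors, 8 passed the minimum in stroma-like cells with 1 higher and 2 lower, beside 5.87% of all genes higher and 7.85% lower. In hypoblast-like cells 1 of 4 was higher (11.9% of all genes), and in trophectoderm-like cells 1 of 3 was higher (29.3%), the lysosomal protease CTSD (1356 CPM on day 12, 366 CPM on day 9). None of 8 was called in blood endothelium-like cells, where 4.32% of all genes were higher and 7.83% lower. The same held in smooth muscle or pericyte-like cells (7.87% and 7.92%). In T or NK cell-like cells 2 of 8 were higher and none lower (7.8% and 11.8%). In macrophage or monocyte-like cells 1 of 8 was higher and 1 lower (6.33% and 10.2%). In B or plasma cell-like cells none of 4 was higher and 1 was lower (11.0% and 16.3%). No count is given for the summed epithelial-marker clusters, which are compared by cluster number.

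Among receptors, adaptors and signalling genes, stroma-like cells moved little. IRS2, an adaptor below the insulin and IGF receptors, rose there (127 CPM on day 12 against 54.2 CPM on day 9, a ratio of 2.35) and was the only one of 8 adaptors past the minimum to be called, while none of 15 signalling genes was, where 5.87% of all genes rose and 7.85% fell. In trophectoderm-like cells 5 of 7 adaptors and 7 of 13 signalling genes rose and none fell, where 29.3% of all genes rose and 10.0% fell, with medians of 1.66 and 1.19 on the log2 scale beside 0.31 for all genes. Examples are SHC1 (41.5 CPM on day 12, 8.12 CPM on day 9), GRB10, an adaptor that restrains the receptors (35.8 CPM on day 12, 8.80 CPM on day 9), PDPK1 (38.9 CPM on day 12, 12.2 CPM on day 9) and FOXO3, a transcription factor held back by AKT (14.7 CPM on day 12, 1.35 CPM on day 9). In hypoblast-like cells 1 of 5 adaptors rose and none fell, where 11.9% of all genes rose and 9.23% fell, with a median of 0.31 on the log2 scale beside -0.16 for all genes. The adaptor that rose was IRS1 (8.02 CPM on day 12, 1.60 CPM on day 9), named here after its values were seen.

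The remaining lists were short. IGFBP7, a binding protein of low affinity, rose in hypoblast-like cells (16.6 CPM on day 12 against 3.76 CPM on day 9) and in trophectoderm-like cells (172 UMIs on day 12, 1 on day 9). In stroma-like cells it was at 1722 CPM on day 12 against 2311 CPM on day 9. IGFALS, the third partner of the circulating complex, was at 15.9 CPM on day 12 against 22.8 CPM on day 9 in stroma-like cells. IGF2BP1, which binds IGF2 mRNA, fell in hypoblast-like cells (12.5 CPM on day 12, 32.1 CPM on day 9), and IGF2BP3 rose in trophectoderm-like cells (26.4 CPM on day 12, 5.87 CPM on day 9). Of 7 matched imprinted growth genes, 4 passed the minimum in each of the 3 large classes. PEG10, PHLDA2 and CDKN1C rose in hypoblast-like cells, with 23.8, 136 and 10.6 CPM on day 12 and 0.714, 52.8 and 4.39 CPM on day 9, and all 3 rose in trophectoderm-like cells, where MEST fell (1.66 CPM on day 12, 6.09 CPM on day 9). PEG10 fell in stroma-like cells (9.31 CPM on day 12, 32.1 CPM on day 9), where PLAGL1 rose (42.9 CPM on day 12, 15.8 CPM on day 9). These calls are to be read against the shares over all genes past the minimum. In hypoblast-like cells 11.9% rose and 9.23% fell, in trophectoderm-like cells 29.3% and 10.0%, and in stroma-like cells 5.87% and 7.85%.

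Of the 4 hormone receptors, none was called in stroma-like cells. ESR1 was at 88.3 CPM on day 12 against 149.9 CPM on day 9, PGR at 33.7 CPM on day 12 against 22.4 CPM on day 9, and GHR, the growth hormone receptor, at 29.3 CPM on day 12 against 20.1 CPM on day 9.

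Over 21 sums of a class in a library, the genes whose log2 levels ran most like each of 4 members were listed from 6487 genes, as a description only, since the sums share libraries, depth and free RNA. For IGFBP5 these were NR2F2 (Pearson r 0.94), SELENBP1 (0.90) and PRRX1 (0.90), and for IGF1 PCOLCE (0.97), TNXB (0.96) and RORB (0.94). For IGFBP6 they were PRELP (0.93), DPT (0.92) and PKD1 (0.91). IGFBP2 had no gene as close, with PTGIS (0.82), LSAMP (0.81) and KLHDC2 (0.81) first. Between the members themselves r was 0.79 for IGFBP5 with IGF1, 0.78 for IGFBP6 with IGF1 and 0.15 for IGFBP2 with IGFBP6.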

How the data were processed

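Single-cell RNA was captured with a 10x Genomics 3' version 3 kit, per the labels' protocols. The deposited matrices hold raw UMI counts per gene and barcode on Sscrofa11.1, made with Cell Ranger 6.1.2 per the submitters' processing notes, but Cell Ranger 4 per the file header of the day 9 embryo. That library was deposited with 657829 barcodes and the other 3 with between 8105 and 11757, so day 9 embryo cells were called here at 2759.47 UMIs or more (0.1 of the 99th percentile of the 3000 largest totals). Barcodes under 1000 UMIs, under 500 genes or over 20% mitochondrial UMIs were dropped. Scrublet marked under 0.5% of cells in 3 of 4 libraries and so did not work there. Each library was clustered alone in scanpy 1.11.5 (2000 variable genes without members and partners, 30 components, Leiden resolution 0.6) and clusters were named from 188 matched markers.

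UMI counts were summed per class and scaled to CPM here. Intervals are exact Poisson for levels, exact conditional binomial for ratios and exact binomial for shares (scipy 1.17.1). UMIs of 1 library are not replicates. The step that forms ratios was run on Poisson counts simulated with known folds. Such counts hold no library effect, free RNA or change of cell mix, so that run covers counting error only. The members, marker and partner lists were chosen with earlier results of these data known. Partners were named by rule: in each list the 3 with the largest ratio among those reaching 20 CPM in the largest class of each tissue, plus PAPPA, PAPPA2 and STC1. Of 58 partners 53 were matched. Scaling by the median of ratios would raise log2 ratios by 0.16 in hypoblast-like, 0.29 in trophectoderm-like and 0.15 in B or plasma cell-like cells and changed no call there. No sequences are shown. IGF2 and IGFBP3 are not reported.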

Additional observations from a re-analysis of the deposited data

Results flagged for a closer look

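The IGFBP6 log2 ratio was 1.44 in hypoblast-like cells and -2.69 in macrophage or monocyte-like cells, 4.14 apart, and the IGFBP4 log2 ratio was 1.25 in the summed epithelial-marker clusters and -2.83 in B or plasma cell-like cells, 4.08 apart. In each pair the classes moved in opposite directions, with 1 library per day, and neither difference was tested. The IGFBP4 value of the B or plasma cell-like cells rests on 0 UMIs on day 12 and 5 on day 9, and the epithelial-marker value on 15 UMIs on day 12 and 16 on day 9.

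Stromal members were also found in day 9 embryo barcodes far below the depth of called cells. In 9953 barcodes of 10 to 100 UMIs, IGF1 was at 255 CPM, IGFBP5 at 189.9 CPM, IGFBP6 at 105 CPM and IGFBP2 at 65.5 CPM, against 19.9, 5.08, 5.94 and 4.43 CPM in the kept cells of the same library. Of these barcodes 5670 were also deposited in an endometrial library. They held 38 of the 39 IGF1 UMIs and 418 UMIs of the stromal gene DCN (4707 CPM). The other 4283 barcodes held 1 IGF1 UMI, 3 of IGFBP5, 2 of IGFBP6 and none of IGFBP2. In hypoblast-like cells of day 9 with barcodes not found in the endometrium, IGF1 was at 21.0, IGFBP5 at 4.20 and IGFBP6 at 6.25 CPM, close to the values of the whole class.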

How the results depend on the processing

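Over 11 alternatives (10 for the epithelial-marker clusters), 18 of the 25 called member-by-class values stayed called in all and 23 kept their sign, while 32 of 38 uncalled values stayed uncalled. Without the 5 CPM minimum, which is not among these, IGFBP4 in hypoblast-like cells (1.06) and IGFBP2 in trophectoderm-like cells (1.26) were also called higher and IGF1R in B or plasma cell-like cells (-1.15) lower. The stromal log2 ratios ranged between 3.88 and 4.00 for IGFBP2, 1.63 and 1.73 for IGFBP5 and -2.46 and -2.14 for IGFBP6. With shared barcodes left out, chosen after seeing the data, the T or NK cell-like values reversed to -1.004 for IGFBP4 and -0.82 for IGFBP5, and that class had 1 higher and 3 lower members. With both days clustered together hypoblast-like cells, of which 1194 day 9 cells were left in the class, had 1 higher member. With 2000 UMIs per cell blood endothelium-like cells had 1 higher member, and the epithelial-marker clusters gave no value, with 25 day 12 cells left. With every day 9 embryo barcode of 1000 UMIs kept, trophectoderm-like cells had 1 lower member, IGF1. With members kept in the clustering, smooth muscle or pericyte-like cells had 1 lower member, and with the mean over cells 2, when B or plasma cell-like cells had 2 higher and blood endothelium-like cells 0 lower. With 2000 UMIs per cell, and with the mean over cells, IGFBP2 was called higher in trophectoderm-like cells and IGFBP4 lost its call in T or NK cell-like cells. Resolution 1.0 called IGF1 higher in T or NK cell-like cells. At that resolution, and with members kept in the clustering, IGFBP5 lost its call in the epithelial-marker clusters. The cause was not tested. No paired analysis was possible because each group has 1 library. Values near 1 to 10 UMIs, as for IGF1R and IGFBP4 in small classes, are limited by depth.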

Other observations

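INS, the gene of insulin and a partner named here after its values were seen, had 528 UMIs in kept cells of the day 12 embryo and 0 in the day 9 embryo. Trophectoderm-like cells held 484 of them, at least 25.2-fold above day 9 with a floor of 3 UMIs in the day 9 class sum, while the exact 95% interval of the ratio starts at 20.4. By the RefSeq gene table INS lies on chromosome 2 with 424 bases between it and IGF2, which was not analysed here. Whether UMIs counted as INS came from transcripts of that neighbour was not tested. The INS UMIs were unevenly spread. In trophectoderm-like cluster 2, 289 UMIs came from 54 of 1131 cells and 154 of those from 1 cell, whereas cluster 1 had 166 UMIs in 112 of 1761 cells with at most 12 in 1 cell. Cluster 9, led by MX1 and ISG15, had 17 UMIs in 11 of 81 cells.

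The unnamed endometrial clusters with T or NK cell markers among their leading genes had 748 CPM of IGF1 in 358 cells on day 12 and 481 CPM in 163 cells on day 9, and IGFBP2 was at 404 CPM on day 12 against 16.6 CPM on day 9 in them. The doublet caller marked no cell of either endometrial library and so did not work there. Whether these clusters hold doublets was not tested.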
